A study of Homo sapiens with 6 samples.

Results

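The genes described here are 10 genes of the NF-κB and inflammasome pathways. They are the subunit genes NFKB1, NFKB2, RELA and RELB, the feedback inhibitor genes NFKBIA and TNFAIP3, the receptor genes NOD1 and NOD2, and the cytokine genes IL1B and IL18. They were chosen by name, as the rows of the raw count table whose gene identifier corresponds to these symbols in GENCODE release 44, and each symbol matched 1 of the 60649 gene rows. The study measured mRNA in the established cell line OVCAR5, an epithelial ovarian cancer line of human origin. METTL3-overexpressing cells (3 libraries) had been transduced with lentivirus carrying METTL3, the catalytic subunit of the enzyme that writes N6-methyladenosine (m6A) on mRNA. Vector control cells (3 libraries) had been given empty-vector lentivirus, although another of the deposited descriptions calls them parental. Both kinds of cells were puromycin-selected stable lines, and no cisplatin treatment is named for these libraries. The sources used here do not state how many independent lines or cultures stand behind the 3 replicates of a group, so the p-values measure the spread between these libraries, which may be technical. RNA came from whole cultures, where fewer cells expressing a gene and less RNA per cell cannot be told apart.

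NF-κB is a family of dimeric transcription factors. In resting cells the dimers are held in the cytoplasm by IκB proteins, and receptors for tumour necrosis factor, interleukin 1 or microbial products release them through the IκB kinases. NF-κB then switches on genes for cytokines and adhesion molecules, and also the genes of its own inhibitors, which close a negative feedback loop. NOD1 and NOD2 are cytosolic sensors of bacterial peptidoglycan fragments that signal to NF-κB through the kinase RIPK2. Inflammasomes are cytosolic complexes that activate caspase-1, which cuts the precursors of interleukin 1β and interleukin 18 into their secreted forms. Messenger RNA levels therefore show the supply of these components, and not the location of NF-κB or the cutting of the cytokines.

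The total counts ranged from 96633925 to 125463386 per library. METTL3 checked the labels, at 152 to 175 CPM (counts relative to the library total, scaled by the TMM method) with METTL3 and 68.6 to 80.6 CPM with the vector. On the first principal component replicate 1 of each group was separated from the other 4 libraries, which held 40.5% of the variance, with scores of −52.9 and −43.0 against 6.15 to 40.9. The fold changes of the 10 genes are therefore also given for replicates 2 and 3 of each group alone, a choice made with the position of these libraries known. The 8 epithelial markers summed to 6322 to 9863 CPM, and none was at 0 in any library. In replicates 2 and 3 their sum was 7888 and 8080 CPM with METTL3 and 6322 and 6420 CPM with the vector, whereas vector control replicate 1 had the highest sum of all. In these replicates edgeR called all 8 markers higher (adjusted p under 0.05, median log2 fold change 0.51), beside 6.66% of all genes called higher. On all 6 libraries edgeR called 0 of the 8, and DESeq2 called 1 higher, beside 217 of 19385 genes (1.12%) called by DESeq2 in either direction. Without overlap between groups 2 of the 8 were higher, beside 1866 of the 22038 genes tested. The part of this difference in epithelial markers in the results below was not tested. Of 12 myeloid and leukocyte markers, between 9 and 10 per library were under 1 CPM, and their sum ranged from 10.2 to 16.8 CPM, with 10.2 to 15.4 CPM in the vector control libraries and 10.6 to 16.8 CPM with METTL3. Most of that sum was CD14, at 7.02 to 11.4 CPM, while the leukocyte-defining PTPRC was at 0 to 0.07 CPM. The 10 fibroblast and endothelial markers summed to 17.3 to 26.4 CPM in the vector control and 28.0 to 39.7 CPM in the METTL3-overexpressing libraries, so these sums did not overlap. COL1A1 and PECAM1 held most of that sum, and between 7 and 8 of the 10 markers per library were under 1 CPM. The fibroblast markers COL1A2, COL3A1, DCN and LUM were each below 0.3 CPM in every library. PDGFRB did not follow the sum, at 0.108 to 0.274 CPM per kb of exonic sequence with METTL3 and 0.117 to 0.387 with the vector.

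With all 6 libraries, none of the 10 genes passed an adjusted p-value of 0.05 in edgeR's quasi-likelihood test of METTL3 against vector. The background was 0 of 22038 genes tested (0%), with 1830 genes (8.3%) at an unadjusted p-value under 0.05. The 22038 genes include METTL3, so this fit did not call the transduced gene either, although its levels did not overlap between the groups. DESeq2 called 217 of 19385 genes (1.12%), and IL1B was the 1 called gene among the 10. All 10 genes passed the filter on low counts. The fitted log2 fold change was above 0 for 9 and below 0 for 1, with a median of 0.18. Over all 22038 genes tested it was above 0 for 10415, with a median of −0.02. In replicates 2 and 3 it was above 0 for 8 of the 10 genes and below 0 for 2, with a median of 0.10. There it was above 0 for 10887 of all 22046 genes tested. In replicates 2 and 3 of each group edgeR called 3 of the 10, beside 3362 of 22046 genes (15.2%). RELA and IL1B rose there, beside 1469 genes (6.66%) called higher, and RELB fell, beside 1893 genes (8.59%) called lower. IL1B was the gene with the largest fitted change of the 10, and it was higher in every METTL3-overexpressing library than in any vector control library.

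**Figure D1:**
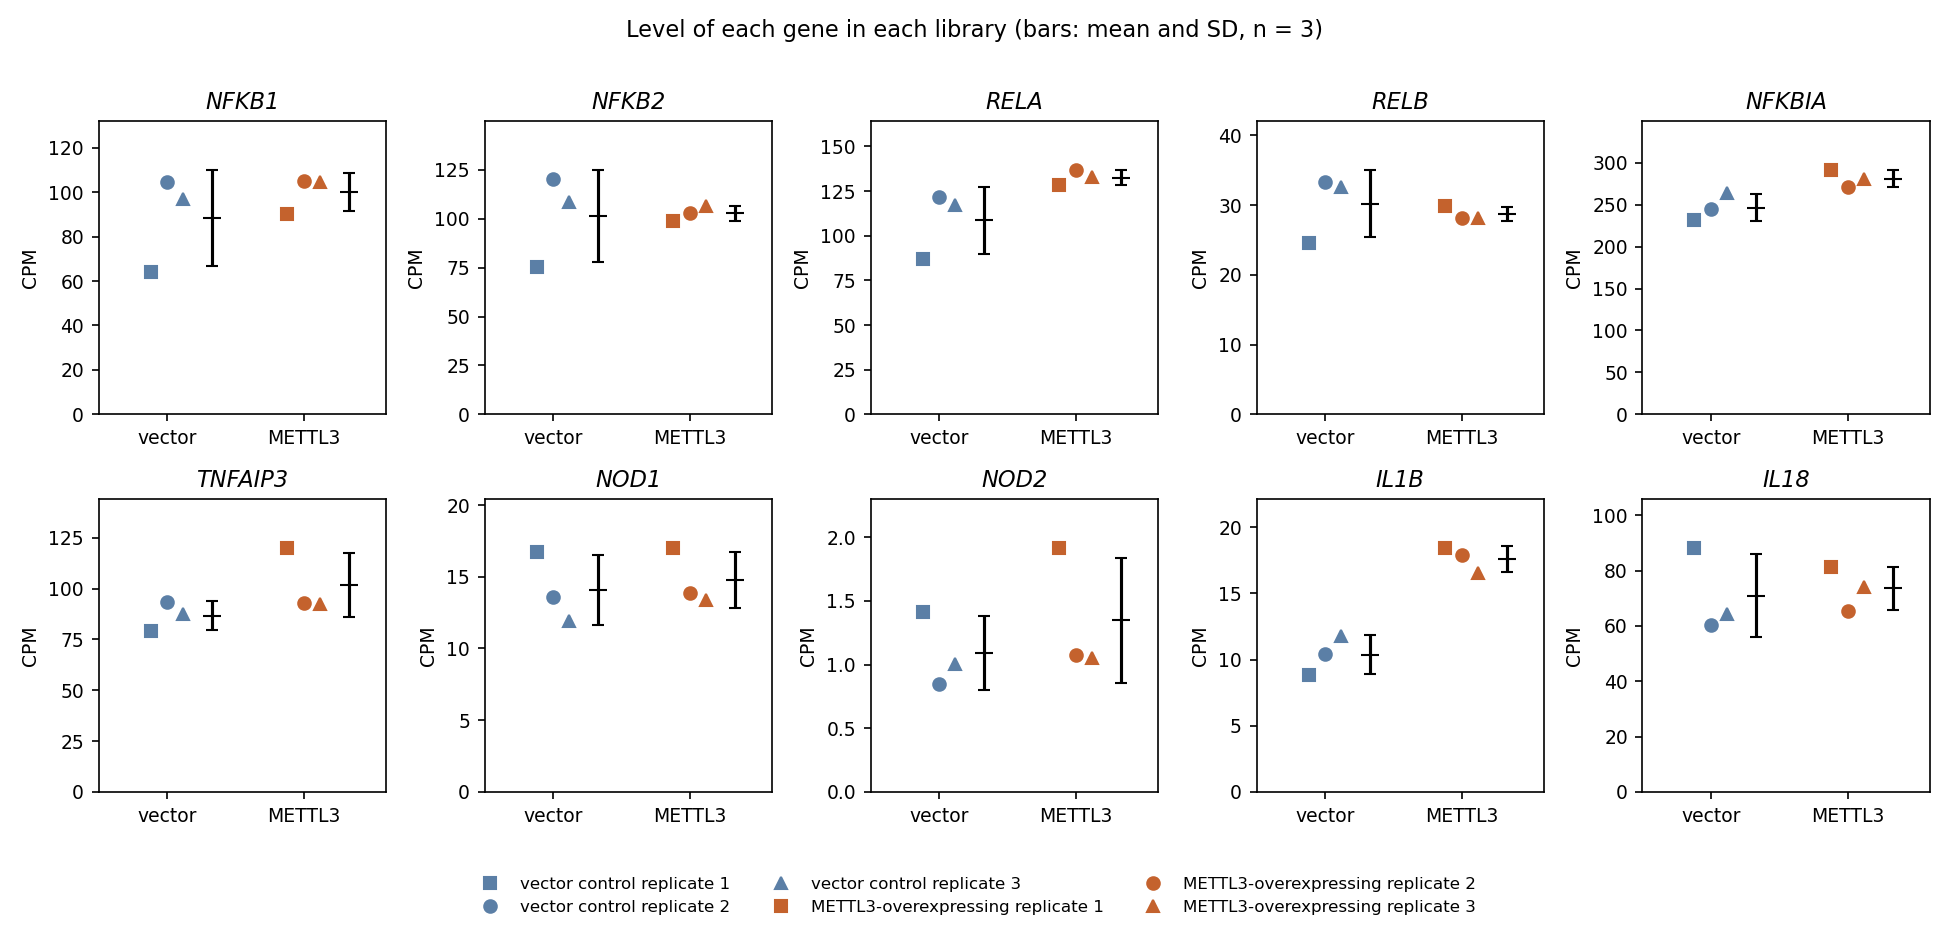
Level of each of the 10 genes in CPM (vertical axes from 0, a separate scale for each gene) in the 3 vector control (blue) and 3 METTL3-overexpressing (orange) libraries, with the replicate number given by the shape of the point and the mean and SD of 3 libraries drawn as black bars. The groups do not overlap for RELA, NFKBIA and IL1B, and vector control replicate 1 (blue square) is the lowest library for 7 of the 10 genes.

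The subunit genes were described first. RELA, on chromosome 11 (GRCh38, 65653599 to 65663090, minus strand), encodes p65, the subunit of the classical dimer that activates transcription. Its levels in replicates 1, 2 and 3 were 129, 137 and 133 CPM with METTL3, and 86.8, 122 and 117 CPM with the vector. The groups did not overlap, and vector control replicate 1 lay well below the other 5 libraries. Its fitted log2 fold change was 0.29 (SE 0.144, adjusted p = 0.627, edgeR). For replicates 2 and 3 alone it was 0.17 (SE 0.0524), a 1.13-fold rise that passed the threshold with an adjusted p = 0.0400. The separation of the 6 libraries had an exact two-sided permutation p = 0.1, the smallest that 3 against 3 libraries allow.

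RELB, on chromosome 19 (45001461 to 45038192, plus strand), encodes a subunit of the alternative pathway, which responds to lymphotoxin and CD40 signals. Its levels were 30.0, 28.1 and 28.2 CPM with METTL3 and 24.6, 33.3 and 32.6 CPM with the vector. Vector control replicate 1 was the lowest library and the other 2 vector control libraries the highest, so the groups overlapped. Over all libraries the log2 fold change was −0.07 (SE 0.141, adjusted p = 0.895). Without replicate 1 of each group RELB fell by 0.23 on the log2 scale (SE 0.0610, adjusted p = 0.0196). RELB is the only one of the 10 genes called lower in any of the fits run.

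NFKB1, on chromosome 4 (102501330 to 102617302, plus strand), encodes p105, the precursor of the p50 subunit. METTL3-overexpressing replicates 1 to 3 had 90.1, 105 and 105 CPM, and the vector control libraries had 64.0, 104 and 96.7 CPM. Only vector control replicate 1 stood clearly away from the rest, and leaving it out took the log2 fold change from 0.18 (SE 0.183, adjusted p = 0.783) to −0.01. Replicates 2 and 3 gave 0.06 (SE 0.0551, adjusted p = 0.560). NFKB2, on chromosome 10 (102394110 to 102402524, plus strand), encodes p100, the precursor of p52, the partner of RELB. Its levels were 98.8, 103 and 107 CPM with METTL3 and 75.2, 120.5 and 108 CPM with the vector, again with vector control replicate 1 lowest. NFKB2 had a log2 fold change of 0.02 (SE 0.171, adjusted p = 0.982), which was −0.13 (SE 0.0590, adjusted p = 0.174) in replicates 2 and 3.

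Because vector control replicate 1 was low for all 4 subunit genes, ratios within each library were also computed. They were chosen after RELA and RELB had been seen to differ, and are given as a description with no test. The ratio of RELA to RELB in replicates 1, 2 and 3 was 4.29, 4.86 and 4.71 with METTL3, and 3.52, 3.65 and 3.60 with the vector. All 3 METTL3-overexpressing libraries lay above all 3 vector control libraries. The mean ratios were 4.62 ± 0.295 and 3.59 ± 0.0629 (SD, n = 3 each), a difference of 0.36 on the log2 scale. The ratio of RELA to NFKB2 was 1.30, 1.33 and 1.24 with METTL3 and 1.15, 1.01 and 1.08 with the vector, which did not overlap either. The ratio of RELA to NFKB1 overlapped between the groups, at 1.27 to 1.43 and 1.16 to 1.36, as did that of RELA to NFKBIA, at 0.441 to 0.504 and 0.375 to 0.496. A ratio within a library does not depend on the scaling between libraries, but it shows unequal change and not which of the genes changed.

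**Figure D2:**
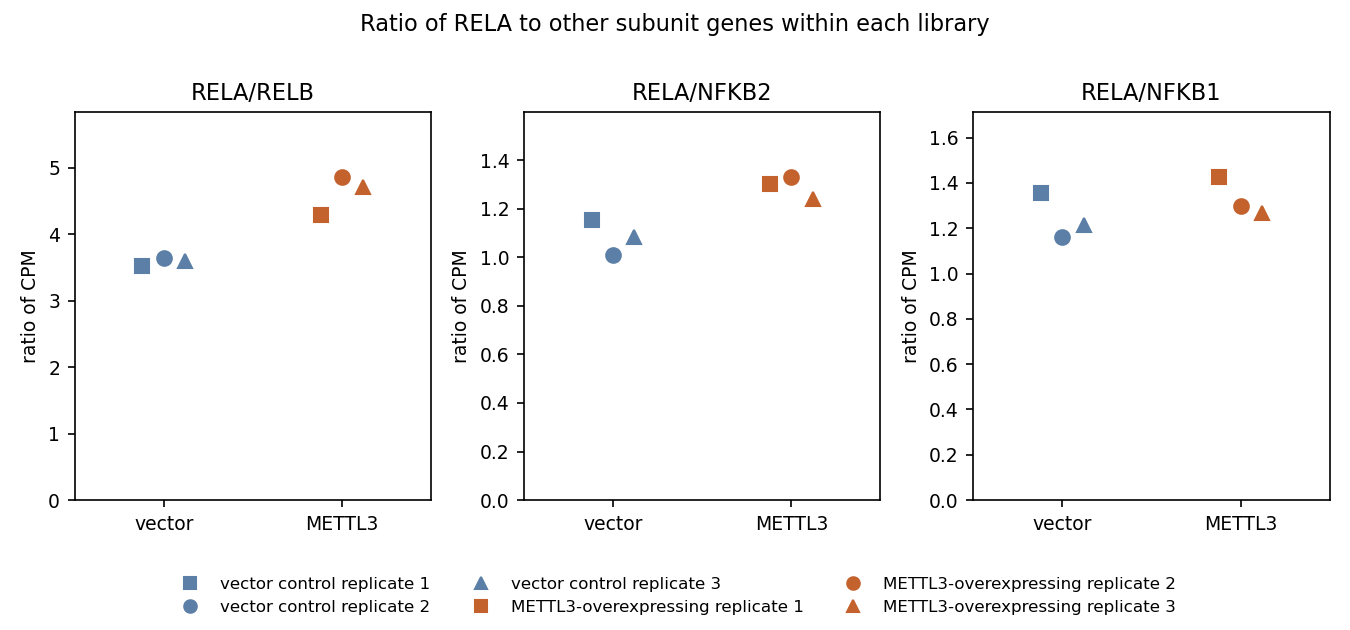
Ratio of the CPM of RELA to that of RELB, NFKB2 and NFKB1 within each of the 6 libraries (vertical axes from 0, point shapes give the replicate number). The ratios to RELB and NFKB2 are higher in all 3 METTL3-overexpressing libraries than in all 3 vector control libraries, and the ratio to NFKB1 overlaps.

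Per kb of exonic sequence, RELA made up 40.2% to 41.2% of the summed level of the 5 genes of the family (the 4 above and REL) in METTL3-overexpressing libraries and 35.5% to 37.5% in vector control libraries. The RELB share was 15.4% to 17.1% with METTL3 and 17.7% to 19.4% with the vector. The NFKB2 share was 30.2% to 31.6% and 31.7% to 34.5%. The shares of NFKB1, at 9.84% to 11.0% and 9.61% to 10.6%, and of REL, at 1.67% to 2.48% and 1.48% to 1.85%, overlapped between the groups. With the length of the longest coding transcript in place of all annotated exons, the RELA share was 37.2% to 38.1% and 33.2% to 35.5%, so its groups stayed apart under either length, as did those of NFKB2 at 26.7% to 27.9% and 28.7% to 30.7%. The RELB share, at 11.0% to 12.5% and 12.8% to 14.2%, also stayed apart. Each length scales a gene by the same factor in every library, so the second length is not an independent check of the separation. Shares of 1 total are not independent of each other.

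The feedback inhibitor genes are textbook NF-κB targets, and their promoters are shown because they carry the sequence that NF-κB binds. The 250 bases before each RefSeq start site (GRCh38.p14) were searched on both strands for the 10-base NF-kB motif. It was found in 9.96% of 35116 promoters of this length. RefSeq gave 13 promoters for 8 of the 10 genes, 1 to 3 for each gene. The motif was in 1 of the 2 promoters of NFKB1, in 2 of the 3 of NFKB2 and in the single promoters of NFKBIA and TNFAIP3. None of the promoters of RELA, NOD1, NOD2 and IL1B held it. Capitals mark the motif, and both sequences run from 5′ to 3′ towards the start site. The NFKBIA promoter lies at chr14:35404750-35404999 on the minus strand, with the first base of the motif 81 bases before the start. The TNFAIP3 promoter lies at chr6:137867009-137867258 on the plus strand, with motifs that begin 67 and 55 bases before the start.
NFKBIA: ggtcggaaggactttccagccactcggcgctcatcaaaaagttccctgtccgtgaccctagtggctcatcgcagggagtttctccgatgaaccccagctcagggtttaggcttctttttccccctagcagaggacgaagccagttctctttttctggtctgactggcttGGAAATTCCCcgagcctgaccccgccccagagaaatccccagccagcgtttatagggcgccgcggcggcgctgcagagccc
TNFAIP3: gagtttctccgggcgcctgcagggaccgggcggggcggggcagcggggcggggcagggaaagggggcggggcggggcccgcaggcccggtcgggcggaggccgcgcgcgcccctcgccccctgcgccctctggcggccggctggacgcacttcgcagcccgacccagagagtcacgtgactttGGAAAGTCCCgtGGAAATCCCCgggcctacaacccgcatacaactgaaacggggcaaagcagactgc
A match is a description of the sequence, and binding was not measured.

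NFKBIA encodes IκBα, which retains NF-κB in the cytoplasm. The gene lies on chromosome 14 (35401079 to 35404749, minus strand) directly downstream of the sequence printed above. Replicates 1, 2 and 3 had 291, 271 and 280 CPM with METTL3 and 231, 245 and 264 CPM with the vector. The groups did not overlap, with a gap of 271 against 264 CPM between the nearest libraries. The log2 fold change was 0.19 (SE 0.111, adjusted p = 0.650), and it was 0.11 (SE 0.0549, adjusted p = 0.199) in replicates 2 and 3. The exact two-sided permutation test gave p = 0.1, the smallest possible.

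TNFAIP3, on chromosome 6 (137867214 to 137883314, plus strand), encodes A20, a ubiquitin-editing enzyme that shuts down signalling upstream of the IκB kinases. Its levels were 120.0, 93.0 and 92.5 CPM with METTL3 and 78.9, 93.4 and 87.6 CPM with the vector. Replicate 1 was the highest library in one group and the lowest in the other, and the remaining 4 libraries lay between 87.6 and 93.4 CPM. The log2 fold change of 0.23 over all libraries (SE 0.138, adjusted p = 0.650) was accordingly 0.03 in replicates 2 and 3 (SE 0.0542, adjusted p = 0.752).

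NOD1, on chromosome 7 (30424527 to 30478784, minus strand), was at 17.0, 13.9 and 13.4 CPM with METTL3 and 16.7, 13.6 and 11.9 CPM with the vector. Each METTL3-overexpressing library was close to the vector control library of the same number, and replicate 1 was the highest in both groups. NOD1 had a log2 fold change of 0.07 (SE 0.169, adjusted p = 0.920), and it was 0.09 (SE 0.0849, adjusted p = 0.536) in replicates 2 and 3. In the annotation 10.9% of the exonic bases of NOD1 overlap exons of a gene on the opposite strand, and since the use of strand in counting is not given in the sources used here, reads of both genes cannot be told apart there.

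NOD2, on chromosome 16 (50693588 to 50733077, plus strand), had the lowest level of the 10 genes. It was at 1.91, 1.07 and 1.05 CPM with METTL3 and 1.41, 0.849 and 1.00 CPM with the vector, from 96 to 216 counts per library. Replicate 1 was again the highest library in each group. Its log2 fold change was 0.31 (SE 0.316, adjusted p = 0.781), and it was 0.19 (SE 0.222, adjusted p = 0.643) in replicates 2 and 3. Leaving out METTL3-overexpressing replicate 1 alone gave −0.01, and leaving out vector control replicate 1 alone gave 0.54. Between replicate numbers, tested in a model with group and replicate number, NOD2 had an unadjusted p = 0.0268 and IL18 an unadjusted p = 0.0460 in edgeR's test. After adjustment none of the 10 genes was called between replicate numbers (lowest adjusted p = 0.299), beside 7 of all genes tested (0.0318%).

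IL1B, on chromosome 2 (112829751 to 112836816, minus strand), encodes the precursor of interleukin 1β, a secreted cytokine whose gene is itself a target of NF-κB in myeloid cells. Its promoter is shown as a contrast to those of the inhibitor genes, since the same search found no NF-kB motif in these 250 bases (chr2:112836780-112837029, minus strand). That says only that these letters are absent from this window. The 4 windows below it hold the GGACT sequence, a form of the pattern at which m6A is found, in capitals with 10 bases on each side. They come from the longest coding transcript of IL1B, of 1507 bases. Site 1 lies in the coding sequence in exon 5 of 7 (GGACT at chr2:112832743-112832747). The other 3 lie in the 3′ UTR in exon 7 (chr2:112830321-112830325, chr2:112830259-112830263 and chr2:112829891-112829895).
IL1B promoter: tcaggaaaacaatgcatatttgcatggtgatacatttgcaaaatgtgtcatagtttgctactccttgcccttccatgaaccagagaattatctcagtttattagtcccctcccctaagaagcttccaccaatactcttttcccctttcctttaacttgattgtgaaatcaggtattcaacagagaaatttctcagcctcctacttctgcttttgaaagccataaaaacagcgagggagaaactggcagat
IL1B site 1: gcacgctccgGGACTcacagcaaaa
IL1B site 2: tgctgaatgtGGACTcaatccctag
IL1B site 3: gctatagcctGGACTttcctgttgt
IL1B site 4: aattcaatttGGACTggtgtgctct
With 4 matches, IL1B had 2.65 per kb, more than 97.4% of the longest coding transcripts of 14132 expressed genes, whose median was 0.937 per kb. The longest transcript of IL18 held 0 matches, and those of the other 8 genes held 0.666 per kb (NOD1) to 2.35 per kb (NFKB2). A high density was not particular to IL1B. NFKB2 was above 95.5% of these transcripts, RELA above 94.1%, NFKBIA above 93.6% and TNFAIP3 above 93.3%. NOD2 was above 87.4%, RELB above 46.5%, NFKB1 above 35.2% and NOD1 above 31.1%. Methylation was not measured in these libraries.

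The level of IL1B in replicates 1, 2 and 3 was 18.4, 17.9 and 16.5 CPM with METTL3, against 8.86, 10.4 and 11.8 CPM with the vector. The lowest METTL3-overexpressing library was above the highest vector control library. The means were 17.6 ± 0.972 and 10.4 ± 1.47 CPM (SD, n = 3 each), with a log2 fold change of 0.77 (SE 0.146), or 1.70-fold. By edgeR's unadjusted p = 0.00066, IL1B ranked 42 among the 22038 genes, and its adjusted p = 0.340 missed the threshold. DESeq2 gave a log2 fold change of 0.78 with an adjusted p = 0.00558. Within replicate numbers the log2 difference was 1.06, 0.78 and 0.49 for numbers 1, 2 and 3. Since the groups did not overlap, any matching of the libraries gives differences above 0, so their sign adds no support. With replicate 1 of each group left out, IL1B rose by 0.63 (SE 0.0869, adjusted p = 0.000167, edgeR), or 1.55-fold. Of the 12 myeloid and leukocyte markers, between 9 and 10 per library were under 1 CPM, and PTPRC was at most 0.07 CPM. CD14 held most of the sum of these markers, which was 10.2 to 16.8 CPM. Which cells held the IL1B mRNA was not tested.

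IL18, on chromosome 11 (112143253 to 112164096, minus strand), encodes the precursor of interleukin 18, which many epithelial cells make without stimulation. Its levels were 81.2, 65.4 and 74.0 CPM with METTL3 and 88.2, 60.4 and 64.2 CPM with the vector. Replicate 1 was the highest library in both groups, and the groups overlapped. IL18 had a log2 fold change of 0.05 (SE 0.165, adjusted p = 0.941), and it was 0.16 (SE 0.0657, adjusted p = 0.129) in replicates 2 and 3. The 2 cytokine genes therefore differed in their values, with the IL1B groups apart and the IL18 groups overlapping, although the difference between their changes was not tested.

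**Figure D3:**
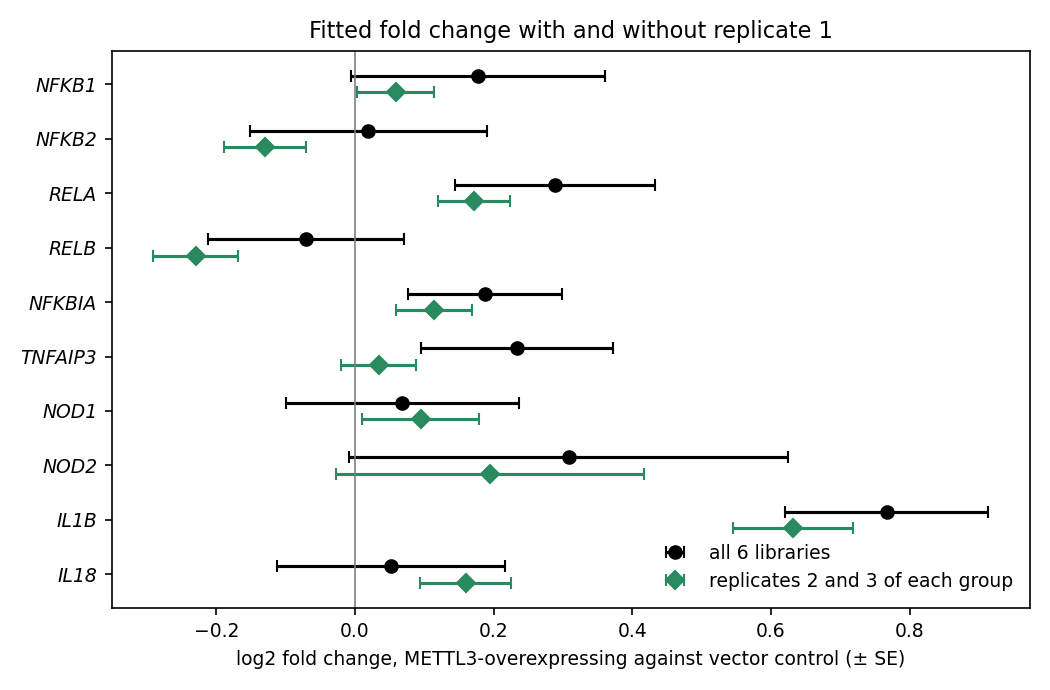
Fitted log2 fold change (METTL3-overexpressing against vector control, edgeR) with its SE for the 10 genes, on all 6 libraries (black circles) and on replicates 2 and 3 of each group (green diamonds). IL1B lies farthest from 0 in both fits, at 0.77 and 0.63, and RELB is at −0.07 and −0.23.

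RELA, NFKBIA and IL1B were the 3 of the 10 genes whose groups did not overlap, all higher with METTL3, beside 3834 of all genes tested (17.4%) in either direction. When replicates 2 and 3 were taken alone, the groups of 8 of the 10 did not overlap, which with 2 libraries against 2 was also so for 54.6% of all genes. Vector control replicate 1 was the lowest library for 7 of the 10 genes and the highest for 1, beside 5440 and 6632 of the 22038 genes tested. The 10 genes share these libraries, so their values are not independent.

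Per kb of exonic sequence, averaged over the 6 libraries, the level fell in the order NFKBIA (77.7 CPM per kb), IL18 (27.7), RELA (22.1), NFKB2 (18.3), TNFAIP3 (14.6), RELB (9.83), NFKB1 (6.01), IL1B (4.65), NOD1 (2.12) and NOD2 (0.160). The ranges over the 6 libraries overlapped for the neighbours IL18 and RELA, at 23.2 to 33.9 and 15.9 to 25.1, and for RELA and NFKB2. NFKB2 and TNFAIP3 overlapped as well, as did NFKB1 and IL1B at 4.08 to 6.71 and 2.94 to 6.12. NFKBIA, RELB, NOD1 and NOD2 overlapped with none of their neighbours. With the length of the longest coding transcript, NFKB1 moved up to 22.7 CPM per kb, above TNFAIP3 at 20.1, because its annotated exons cover 15679 bases and its longest coding transcript 4153. The order of the other 9 genes was the same under both lengths.

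Over the 6 libraries the gene whose log2 CPM was most like that of IL1B, among 10026 genes with a mean of at least 10 CPM, was ZNF621 (Pearson r = 0.997). For RELA it was EPAS1 (r = 0.9996), for NFKB1 RFX1 (r = 0.999), for RELB RNF144A (r = 0.995) and for NFKBIA RPRD1B (r = 0.980). Among the 10 genes the highest correlation was between NFKBIA and IL1B (r = 0.94) and the lowest between NFKB2 and IL18 (r = −0.86). These are descriptions of 6 points that share their libraries, and each partner was the highest of many genes searched.

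The rest of the pathway was taken from lists of 146 matched genes, of which 135 were tested. With all 6 libraries 0 of them were called by edgeR. At edgeR's unadjusted p-value under 0.05, 12 were higher and 3 lower, beside 969 and 861 of the 22038 genes tested. DESeq2 called 3 higher and 1 lower, beside 152 and 65 of 19385 genes. The log2 fold change was above 0 for 75 and below 0 for 60, with a median of 0.04 beside −0.02 for all genes tested. In replicates 2 and 3 edgeR called 29 higher and 14 lower (31.6% of 136 tested), beside 15.2% of all genes. That 15.2% is also the background for the share of each single list given below. These lists were written with earlier results of these data known.

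**Figure D4:**
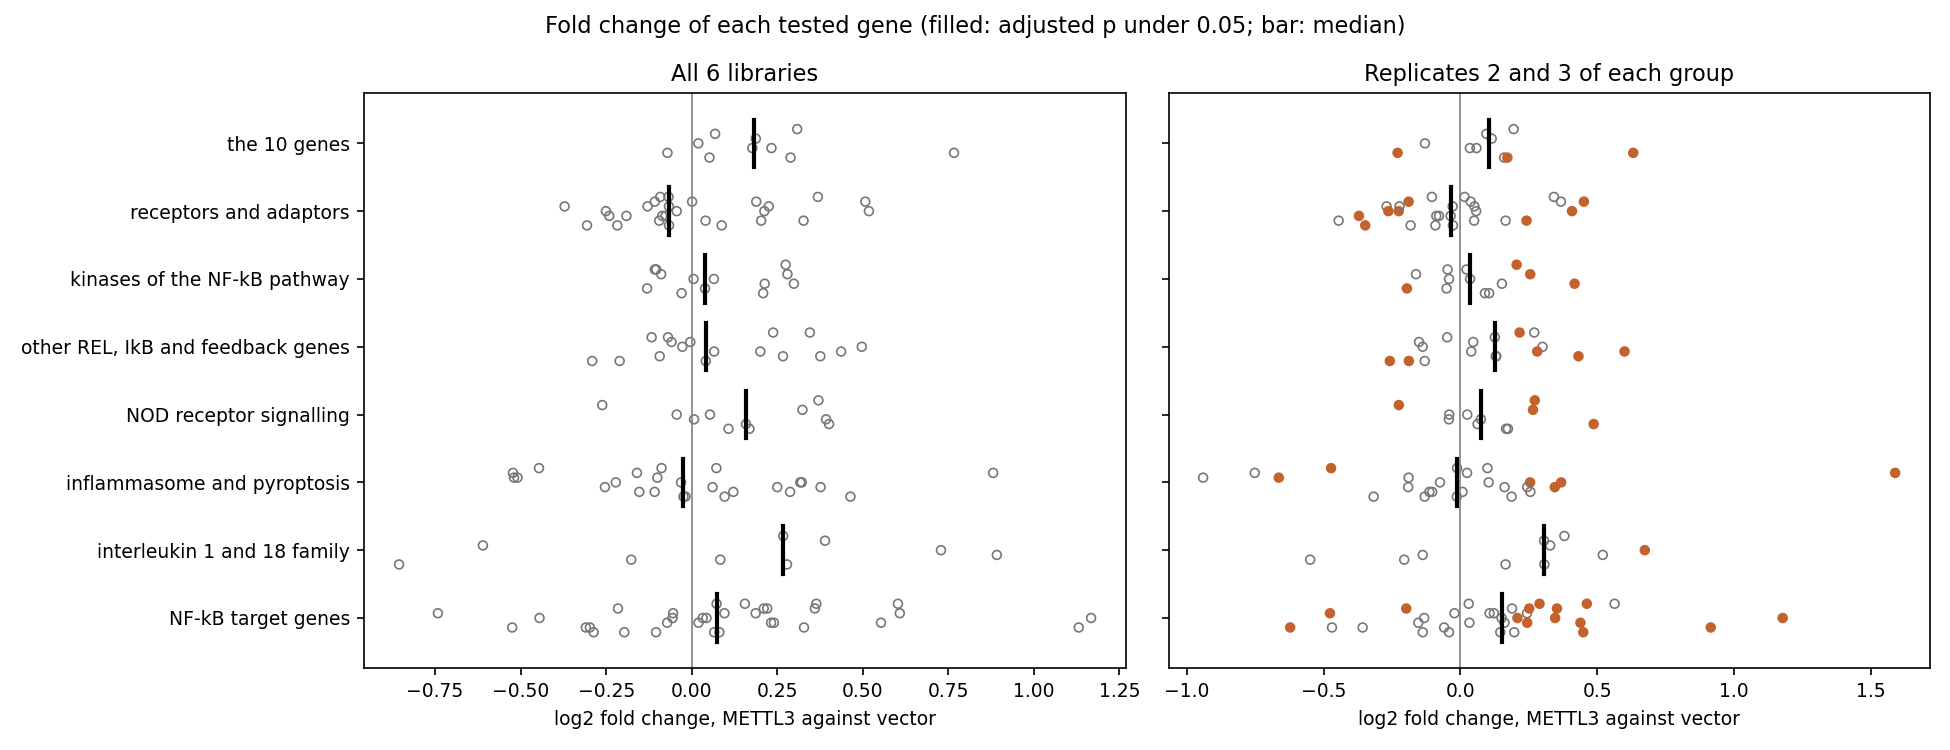
Log2 fold change (METTL3-overexpressing against vector control) of each tested gene in the 10 genes and the 7 other pathway lists, on all 6 libraries (left) and on replicates 2 and 3 of each group (right), with filled points for an adjusted p-value under 0.05 and a bar at each list's median. No point is filled on the left, and the target genes hold 14 of the filled points on the right.

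Among the NF-κB target genes, 21 of 33 had a log2 fold change above 0 (median 0.07), and in replicates 2 and 3 edgeR called 11 higher and 3 lower (42.4%). C3, the central component of complement, was at 1389, 955 and 883 CPM with METTL3 and 499.5, 502 and 472 CPM with the vector. The 3 METTL3-overexpressing libraries were far above the vector control libraries, with a log2 fold change of 1.13 (SE 0.182, adjusted p = 0.289 in edgeR and 5.23e-06 in DESeq2). IL6, the gene of the cytokine interleukin 6, was at 9.06, 5.73 and 4.99 CPM with METTL3 and 4.08, 2.18 and 2.56 CPM with the vector, again without overlap. Its log2 fold change was 1.17 (SE 0.306, adjusted p = 0.426 in edgeR and 0.00579 in DESeq2). TNFAIP2 was at 1532 to 1791 CPM and 1049 to 1189 CPM, with a log2 fold change of 0.55 (SE 0.130, adjusted p = 0.395 in edgeR and 0.0345 in DESeq2). In replicates 2 and 3 all 3 genes rose, by 0.92, 1.18 and 0.44 on the log2 scale (highest adjusted p = 6.8e-05, edgeR).

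Interleukin 1 and 18 family genes, apart from IL1B and IL18, numbered 13, of which 9 were tested. IL1A, which encodes the other interleukin 1 cytokine and needs no inflammasome, was at 48.1, 73.5 and 70.9 CPM with METTL3 and 25.7, 45.0 and 45.4 CPM with the vector. Every METTL3-overexpressing library was above every vector control library, and replicate 1 was the lowest in both groups. The log2 fold change was 0.73 (SE 0.244, adjusted p = 0.538), and in replicates 2 and 3 IL1A rose by 0.67 (SE 0.0558, adjusted p = 1.95e-06), the 1 gene of this list called there (10.0% of 10 tested). IL1RL1, the receptor of interleukin 33, was at 1.44 to 1.69 CPM with METTL3 and 1.09 to 1.29 CPM with the vector (adjusted p = 0.632, and 0.351 in replicates 2 and 3). It overlaps IL18R1 on the same strand in the annotation, so the division of reads between them is uncertain.

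Of 17 other REL, IκB and feedback genes, 4 rose and 2 fell in replicates 2 and 3 (35.3%). ZC3H12A, which encodes the RNase Regnase-1 that degrades cytokine mRNAs, was at 102, 81.1 and 81.6 CPM with METTL3 and 61.7, 68.6 and 65.1 CPM with the vector. These groups did not overlap, with a log2 fold change of 0.44 (SE 0.126, adjusted p = 0.454) over all libraries and 0.28 (adjusted p = 0.00264) in replicates 2 and 3. BIRC3, encoding the ubiquitin ligase cIAP2, was at 510, 570.1 and 584 CPM with METTL3 and 688, 377 and 383 CPM with the vector. Vector control replicate 1 was here the highest library, and the log2 fold change was 0.20 (adjusted p = 0.809) with it and 0.60 (adjusted p = 2.13e-06) in replicates 2 and 3. REL, the fifth subunit gene, was at 17.3 to 24.8 CPM and 13.4 to 17.3 CPM (log2 fold change 0.50, adjusted p = 0.546, and 0.30, adjusted p = 0.116, in replicates 2 and 3), and TNIP3, a partner of A20, at 5.41 to 6.03 CPM and 4.03 to 6.03 CPM.

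Receptors and adaptors were 27 genes with a median log2 fold change of −0.07, and 3 rose and 5 fell in replicates 2 and 3 (29.6%). TNFRSF11A, the receptor RANK, was at 8.82 to 12.9 CPM with METTL3 and 6.63 to 8.02 CPM with the vector, and IRAK3, an inhibitor of Toll-like receptor signalling, at 4.73 to 5.75 CPM and 3.03 to 4.15 CPM. Neither overlapped between groups. On all 6 libraries neither was called (adjusted p = 0.562 for both, edgeR), and in replicates 2 and 3 they rose by 0.41 and 0.45 (adjusted p = 0.00771 and 0.0131). Among 13 kinases of the pathway and their partners, 3 rose and 1 fell there (30.8%). The genes that rose were IKBKE, a kinase related to the IκB kinases, by 0.42 (adjusted p = 0.000711), TAB3, an adaptor of the kinase TAK1, by 0.26 (adjusted p = 0.0134), and RBCK1, a subunit of the linear ubiquitin ligase, by 0.21 (adjusted p = 0.0130). On all 6 libraries none of these was called, with adjusted p = 0.626, 0.590 and 0.575 (edgeR). IKBKE then overlapped between groups, at 10.7 to 12.2 CPM per kb with METTL3 and 8.02 to 11.4 with the vector.

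NOD receptor signalling was represented by 11 genes, of which 3 rose and 1 fell in replicates 2 and 3 (36.4%). RIPK2, the kinase that both NOD receptors use, was the gene that fell. It was at 66.9, 73.1 and 66.6 CPM with METTL3 and 84.5, 82.5 and 80.7 CPM with the vector. The groups did not overlap and replicate 1 did not stand apart, with a log2 fold change of −0.26 over all libraries (SE 0.102, adjusted p = 0.567) and −0.23 in replicates 2 and 3 (SE 0.0593, adjusted p = 0.0186). MAVS, the mitochondrial adaptor of RNA sensing, was at 186 to 212 CPM with METTL3 and 155 to 170 CPM with the vector. MAVS was not called over all libraries (adjusted p = 0.547, edgeR), and it rose by 0.27 in replicates 2 and 3 (adjusted p = 0.00947). CARD6 and the peptide transporter gene SLC15A1 rose by 0.49 and 0.27 there (adjusted p = 0.00534 and 0.0271), and both overlapped between groups once replicate 1 was included.

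Of 32 inflammasome and pyroptosis genes 25 were tested, and 4 rose and 2 fell in replicates 2 and 3 (24.0%). NLRP3, the sensor of the best known inflammasome, was at 0.816, 3.20 and 2.98 CPM with METTL3 and 0.938, 4.11 and 4.47 CPM with the vector. Both libraries of replicate 1 were below all 4 others, and in replicates 2 and 3 NLRP3 fell by 0.47 (SE 0.128, adjusted p = 0.0213). NLRP1, another inflammasome sensor, was at 4.55, 6.40 and 6.56 CPM and 4.39, 10.7 and 9.80 CPM, and fell by 0.66 there (SE 0.0933, adjusted p = 0.000197). TXNIP, a protein that binds thioredoxin and NLRP3, was at 231 to 286 CPM and 183 to 243 CPM, and rose by 0.37 in replicates 2 and 3 (adjusted p = 0.00023). The study lists TXNIP among genes selected with these samples, so its rise is not independent evidence. NLRC5 was at 11.5 to 15.8 CPM with METTL3 and 9.67 to 11.1 CPM with the vector, and was not called (adjusted p = 0.632, and 0.484 in replicates 2 and 3). AIM2, which encodes a DNA sensor, was among the 7 genes that did not pass the filter on low counts.

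**Figure D5:**
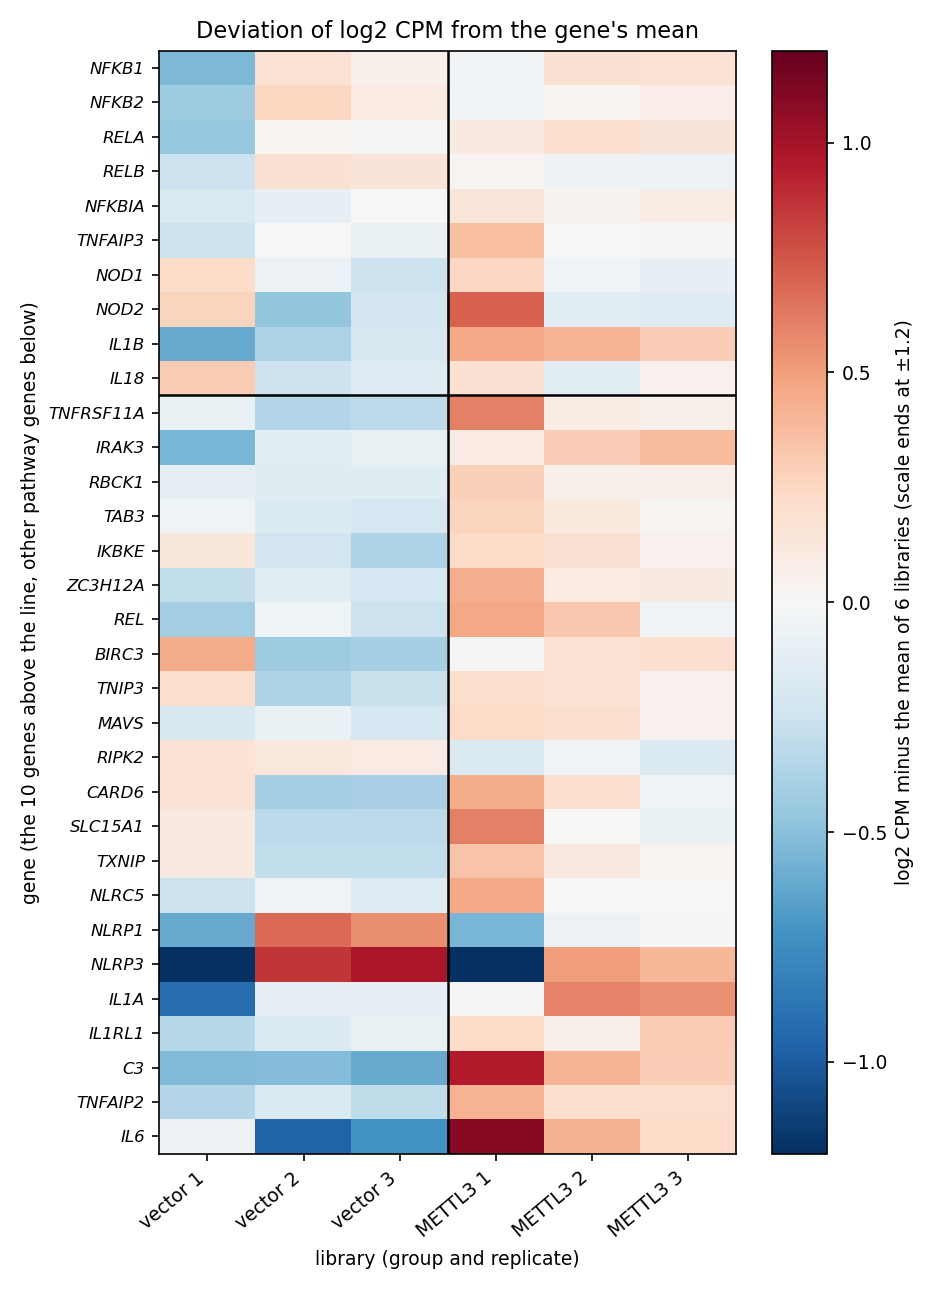
Deviation of log2 CPM from the mean of the 6 libraries for the 10 genes (above the line) and 22 other pathway genes (below it), with 1 column per library and a colour scale that ends at ±1.2. IL1B, C3 and IL1A are lower in every vector control library than in every METTL3-overexpressing library, whereas NLRP3 and NLRP1 are low in replicate 1 of both groups.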

How the data were processed

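Per the labels, poly(A) RNA was sequenced with a stranded TruSeq kit as paired-end reads, whereas the study's methods describe an NEBNext kit and single-end reads. The submitters' processing notes name fastp, HISAT2, featureCounts and Subread with GRCh38 (hg38). Versions, annotation release, strand setting and treatment of multiply mapped reads are not given in the sources used here. The authors deposited raw counts per gene, whole numbers without normalization. Between 67.6% and 70.5% of counts from 1 to 20 were even, so counts divided by 2 were also tested. Identifiers were matched to GENCODE release 44, which left 142 of 60649 rows unnamed.

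Genes passing filterByExpr (22038) were scaled by TMM and tested in R 4.3.3 with edgeR 4.0.16 (glmQLFit, robust, and glmQLFTest) and Benjamini-Hochberg adjustment over all genes tested, with a threshold of 0.05. Each SE was derived as |log2 fold change| / √F. DESeq2 1.42.0, the tool of the study's methods, was an alternative. For this comparison the study reports many more genes at an FDR under 0.05 than either tool called here on 6 libraries. The reason was not tested. The fits were also run on simulated counts drawn with the same dispersion for every gene. That setting differs from these libraries, so the run does not show how many changes the fits miss here. The 10 genes and all lists were chosen with earlier results of these data known, and 1 listed symbol, SOD2, was not matched. Other pathway genes named are, per list, the 2 with the lowest p-value on 6 libraries and the 2 called genes with the largest change in replicates 2 and 3, each with a mean of at least 1 CPM, and any gene called on 6 libraries, of which there were 0. AIM2, the ratios of subunit genes, levels per kb of the longest coding transcript, ICAM1, VCAM1 and NLRP12 were added after values were seen. Promoter sequences are from RefSeq (GRCh38.p14).

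The replicate numbers are shared between groups. Deviations from the group means correlated at 0.36, 0.25 and 0.27 between libraries of the same number, each above the minimum of 0.1, so the numbers met the rule for pairing. The labels state no pairing. Values in the text come from the fit without the replicate number and permutation tests were unpaired, and the paired fit was an alternative. In the same check METTL3-overexpressing replicate 2 correlated more with vector control replicate 3 (0.38).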

Additional observations from a re-analysis of the deposited data

How the results depend on the processing

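The counts of calls changed with the processing. Over all genes, edgeR called 0 on the 6 libraries, 560 without a filter on low counts and 3362 in replicates 2 and 3 of each group, and DESeq2 called 217. Leaving out 1 library at a time gave 0 to 367 genes, with 367 only without vector control replicate 1. For the 10 genes the counts were 0, 1 without the filter, 3 in replicates 2 and 3, 1 with DESeq2, and 0 to 1 with 1 library left out, the call again without vector control replicate 1. It was IL1B (log2 fold change 0.67, adjusted p = 0.0393, edgeR). For the other pathway genes they were 0, 7, 43, 4 and 0 to 4. With the replicate number as a block, 0 genes and 0 of the 10 were called (IL1B adjusted p = 0.169), so the block changed no call. Other size factors, upper-quartile factors, a minimum of 10 counts and counts divided by 2 also left all 3 counts at 0. Over all alternatives the log2 fold change of IL1B ranged from 0.63 to 0.90 and its adjusted p-value from 0.000167 to 0.904. Between replicate numbers, 7 genes were called by edgeR, 1482 without the filter and 1111 by DESeq2's likelihood ratio test. The number of the 10 genes that did not overlap was 3, and 8 in replicates 2 and 3.

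The sign of the log2 fold change turned in the fits below, and the gene was not called in any of them. Without vector control replicate 1, NFKB1 was at −0.0093 and NFKB2 at −0.16, and NFKB2 was at −0.13 in replicates 2 and 3. RELB was at 0.030 without vector control replicate 2 and 0.012 without vector control replicate 3. Without METTL3-overexpressing replicate 1, NOD1 was at −0.023, NOD2 at −0.0096 and IL18 at −0.0013. NOD1 was at −0.0080 without vector control replicate 3, and IL18 at −0.020 without vector control replicate 2. Leaving out 1 library at a time gave −0.0093 to 0.34 for NFKB1, −0.16 to 0.19 for NFKB2, −0.20 to 0.03 for RELB, −0.02 to 0.21 for NOD1, −0.01 to 0.54 for NOD2 and −0.02 to 0.24 for IL18. The cause was not tested. NOD2 had the fewest counts, 96 to 216 per library.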

Other observations

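VCAM1 and ICAM1, genes of adhesion molecules among the NF-κB targets, were picked after their values were seen. For VCAM1 replicates 1, 2 and 3 had 65.1, 65.9 and 63.1 CPM with METTL3 and 145, 90.5 and 88.9 CPM with the vector, without overlap. Its log2 fold change was −0.74 (SE 0.192, adjusted p = 0.415 in edgeR and 0.0373 in DESeq2), and it fell by 0.48 in replicates 2 and 3 (adjusted p = 3.36e-05, edgeR). ICAM1 was at 257, 264 and 245 CPM with METTL3 and 159, 401 and 381 CPM with the vector. Vector control replicate 1 was its lowest library, so the groups overlapped, with a log2 fold change of −0.30 (SE 0.3003, adjusted p = 0.779, edgeR). In replicates 2 and 3 ICAM1 fell by 0.62 (adjusted p = 4.07e-06, edgeR).

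NLRP12, which encodes a NOD-like receptor, was the called gene with the largest log2 fold change among the inflammasome genes in replicates 2 and 3, at 1.59 (SE 0.394, adjusted p = 0.0130, edgeR). Its mean was under 1 CPM, with 0.479, 0.460 and 0.515 CPM with METTL3 and 0.474, 0.195 and 0.127 CPM with the vector, so vector control replicate 1 lay within the METTL3 group.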
